A study of Bos taurus with 8 samples.

Results

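The genes described here make up the protein folding machinery of the endoplasmic reticulum (ER), the compartment in which secreted and membrane proteins are made. A list of 40 genes was chosen by function, and each was looked up in the array annotation and represented by its brightest probe. Of these, 36 were found under their listed symbol and 2 through a RefSeq synonym (HYOU1, annotated on the array as ORP150, and XBP1, annotated as XBPP1), so that 38 of the 40 genes, out of 15229 gene symbols on the array, were measured. CANX and ATF6 matched no probe and were not analysed here.

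New secretory proteins enter the ER through a membrane channel, lose their signal peptide, receive sugar chains and are folded by chaperones and by enzymes that form disulfide bonds, while proteins that fail to fold are returned to the cytosol and degraded. When unfolded proteins build up, membrane sensors start the unfolded protein response, in which the transcription factors XBP1 and ATF6 raise the transcription of chaperones and of degradation factors. Granulosa cells, which line the ovarian follicle and surround the oocyte, secrete inhibins, follistatin and other glycoproteins into the follicular fluid and depend on this machinery.

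The data compare granulosa cells of bovine dominant follicles at 2 of the stages that the study examined, growing and plateau. Its atretic follicles were not analysed here. All follicles came from slaughterhouse ovaries of Holstein cattle and were above 9 mm in diameter, and the mural granulosa cells of each were collected by scraping. Growing follicles were those with the highest share of intact and dividing cells by flow cytometry of DNA content, and plateau follicles had intermediate values, with little division and little cell death. The study gives the reproductive status and cycle stage of the cows as unknown, and stage is a ranking of single follicles and not a time course. There were 4 growing and 4 plateau follicles, each from 1 RNA sample that was amplified before labelling. Each growing follicle shared its arrays with 1 plateau follicle, and each such follicle pair was hybridized on 2 arrays with the Cy3 and Cy5 dyes exchanged, giving 8 arrays on 2 slides. A ratio is given below as log2 of plateau over growing, averaged over the 2 arrays of a pair, so that negative values are lower in the plateau follicle. A level is the mean log2 intensity of a follicle over its 2 arrays, and levels were compared only within a probe.

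Each array held 45220 spots, with median intensities of 288 to 438 in Cy3 and of 187 to 287 in Cy5, and between 56.6% and 79.1% of probes were above the negative control spots. All 38 genes passed the intensity minimum of the study (a log2 mean of 7), the lowest at 8.04, and 36 of them were above background in every follicle on every array. The dimmest were ERN1, above background on 4 of 8 arrays for growing and 7 of 8 for plateau follicles, and FKBP14, on 7 of 8 for each stage. PDIA6 was the only gene with saturated readings, 6 in all.

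The follicles did not all carry their label's markers to the same degree. CYP19A1, the aromatase that makes oestradiol in granulosa cells, had a level of 8.17 in growing follicle 2, 8.06 in plateau follicle 2, 8.48 in plateau follicle 3 and 11.90 in growing follicle 1, against 14.83 to 15.78 in the other 4. By quantitative PCR on these and further follicles, the study found no difference in the mean or variance of CYP19A1 between stages. It called the level homogeneous, unlike the spread of these array levels. The study also listed CYP19A1 among genes with a larger standard deviation in plateau follicles than at the other stages. It took this as a possible sign of a more varied set of follicles. Its check of the theca gene CYP17A1 set apart only an atretic sample. The summed intensity of the 10 granulosa cell markers ran from 69169 to 230997 in growing and from 18408 to 234111 in plateau follicles, with the lowest in plateau follicle 3, and all 10 were above background on at least 4 of 8 arrays for each stage. The 10 smooth muscle and fibroblast markers summed to between 12013 and 19535 in growing and between 8876 and 170773 in plateau follicles, the highest again in plateau follicle 3, where COL1A2 had a level of 15.90, and 10 of them in growing and 9 in plateau follicles passed that mark. The 9 leukocyte markers summed to 1853 to 2431 in growing and 1914 to 7440 in plateau follicles, with the highest values in plateau follicles 2 and 3, and 7 and 6 of them passed it. The endothelial marker PECAM1 was above background on 1 of 8 arrays for each stage, though 5 of 6 endothelial markers passed the mark, and the 5 theca markers summed to 3709 to 5517 in growing and 1645 to 8743 in plateau follicles, with 4 of 5 past it. Growing follicles 1 and 2 and plateau follicles 2 and 3, in pairs 1 to 3, thus stood apart in one or more of these markers. Plateau follicle 4, in pair 4, had the highest theca sum, 8743, against at most 5517 in the others. No pair was free of such differences, and results are given with each pair left out where this matters. In these bulk samples, fewer granulosa cells and less RNA per granulosa cell cannot be told apart.

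Across the 38 genes, plateau follicles had the lower mean for 30 genes and the higher mean for 8, and the median log2 ratio was -0.21. Over all 15229 genes with 1 probe each, 47.8% had the lower mean in plateau follicles and the median was 0.01, and among the 9788 genes at least as bright as the dimmest of the 38 the share was 47.3%. The direction was not shared by all pairs. In pair 1 only 4 of the 38 genes were lower in the plateau follicle, with a median of 0.85. In pair 2, 35 genes were lower with a median of -1.03, in pair 3, 29 were lower with a median of -0.63, and in pair 4, 29 were lower with a median of -0.35. Over the 9788 genes as bright, between 46.0% and 51.1% were lower in each pair. The mean of the list thus rested on pair 2: without it 21 genes were higher and 17 lower, with a median of 0.026. Without pair 1, 35 of the 38 were lower, with a median of -0.59, and without pair 3 or pair 4, 24 and 25 were.

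**Figure D1:**
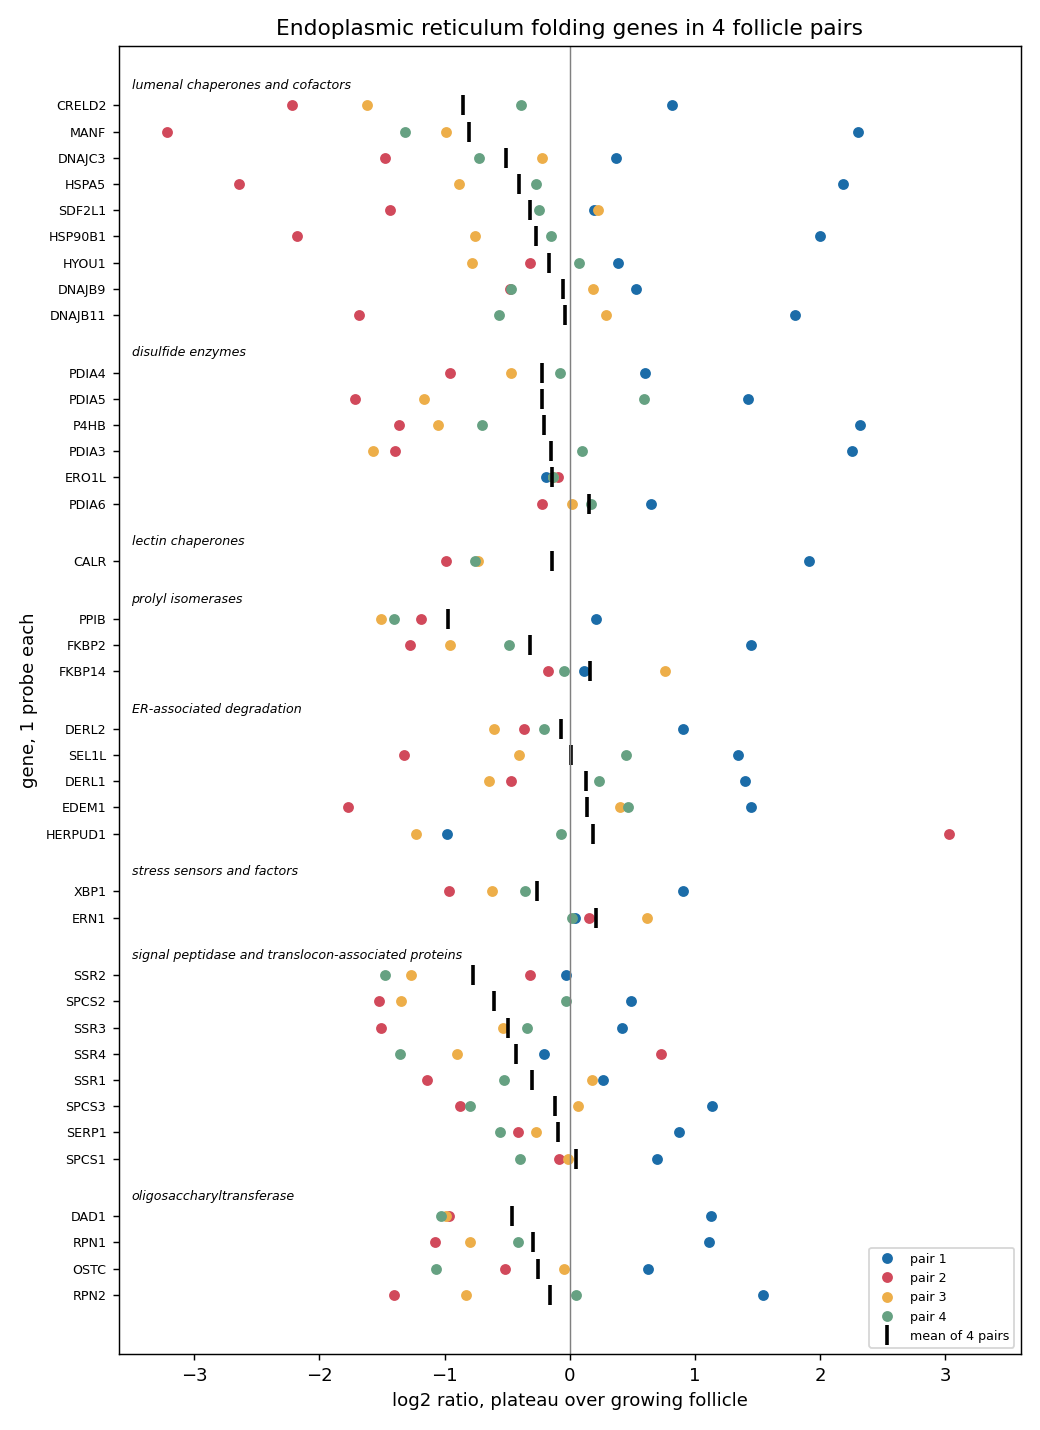
Log2 ratio of plateau over growing (x axis) for each of the 38 genes (y axis, grouped by role), with 1 point per follicle pair and a black bar at the mean of 4 pairs. Points of pair 1 lie mostly to the right of 0 and those of pair 2 mostly to the left, with HERPUD1 the other way round.

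The 38 genes varied between pairs. The SD of the log2 ratio over the 4 pairs had a median of 0.92 for the 38 genes, against 0.54 for the 9788 genes as bright and 0.69 for the 2119 genes whose intensity lay between the quartiles of the 38. The deviation of either dye-swap array from the mean of its pair had a median of 0.12 for the 38 genes and of 0.13 for the genes as bright. The follicle with the highest level exceeded the one with the lowest by a median of 1.51 on the log2 scale, compared with 1.16 over the genes as bright, and by up to 3.98 for HERPUD1.

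No gene of the 38 passed the test of plateau against growing after adjustment. At the study's criterion (over 1.5-fold, p under 0.05 before adjustment, and the same intensity minimum), 2 of the 38 genes were called, PPIB and SSR2, both lower in plateau follicles. This criterion called 0.952% of all genes with 1 probe each in either direction, 0.473% as lower and 0.479% as higher in plateau, and 0.633% of all probes. PPIB and SSR2 were also the only 2 of the 38 with an unadjusted p under 0.05, against 2.6% of all genes. Brighter genes were called more often. Of the 9788 genes as bright, 359 had such a p, and 72 met the criterion as lower and 69 as higher. Of the 2119 genes between the intensity quartiles of the 38, 126 had such a p, and 31 and 30 met the criterion. With Benjamini-Hochberg adjustment over 43794 probes, limma called 0 probes at an adjusted p under 0.05, the lowest adjusted p being 0.9997. Before adjustment 803 of the 43794 probes had a p under 0.05, fewer than the share of 0.05 that chance alone would give. An exact sign-flip test over 4 pairs cannot give a p below 0.125. In 3 of the 38 genes all pairs went the same way (ERO1L and SSR2 lower, ERN1 higher), as did 9.15% of all genes (4.28% lower in every pair), and in 0 of the 38 did the levels of the 2 stages not overlap, as they did not for 1.42% of all genes. Without pair 1, 12 of the 38 genes met the criterion, all lower in plateau follicles, where 2.2% of all genes did, and without pair 2, 1 was lower (1.29% of all genes) and 1 higher (1.02%). Without pair 3 or pair 4 none did, against 1.2% and 1.35% of all genes in either direction.

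**Figure D2:**
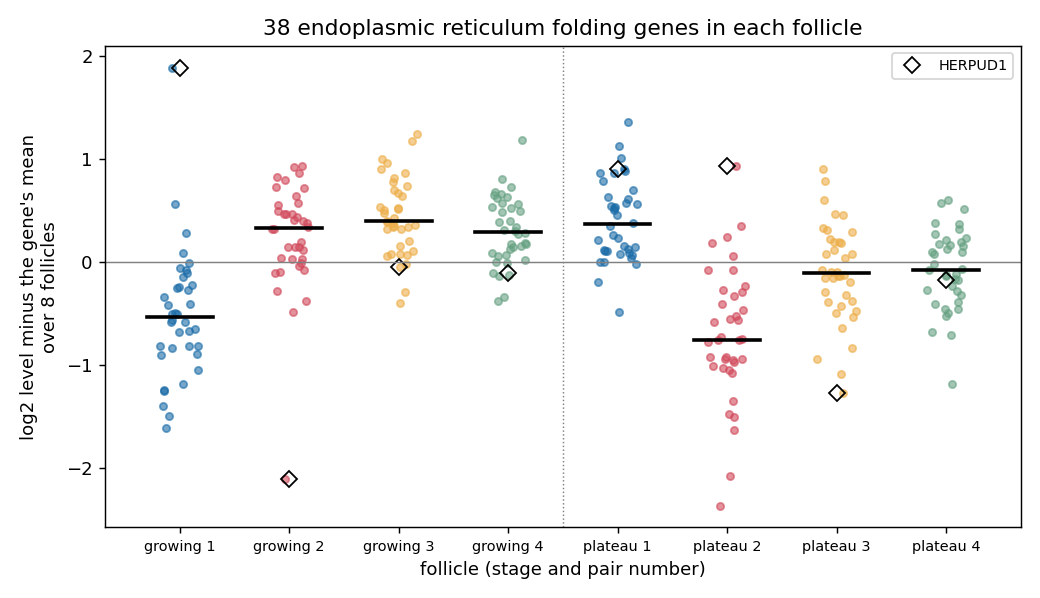
Level of each of the 38 genes in each of the 8 follicles (x axis), as log2 intensity minus the gene's own mean over the 8 follicles (y axis), with a black bar at the median of the 38 genes and diamonds for HERPUD1. Growing follicle 1 and plateau follicle 2 have the lowest medians, -0.53 and -0.75, and HERPUD1 is high in both.

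Seen by follicle, the low levels belonged to 1 follicle of each stage. Relative to each gene's own mean over the 8 follicles, the median of the 38 genes was -0.53, 0.33, 0.39 and 0.29 in growing follicles 1 to 4 and 0.36, -0.75, -0.11 and -0.08 in plateau follicles 1 to 4. Growing follicle 1 was below the gene's mean for 34 of the 38 genes and plateau follicle 2 for 33, whereas among the 9788 genes as bright they were below it for 52.7% and 52.9%. The pattern was not particular to the 38 genes. The 2 shares were 76.2% and 81.0% for 21 other ER folding factors and 66.7% and 91.7% for 12 glycan genes. They were 65% and 85% for 20 ER to Golgi genes and 77.8% and 55.6% for 18 cytosolic chaperones. For 14 translocation genes they were 42.9% and 50%. Plateau follicle 2 had the lowest level of all 8 follicles for 20 of the 38 genes and growing follicle 1 for 8. For 22 of the 38 genes, or 57.9%, these were the 2 lowest follicles, which held for 11.3% of the genes as bright. These 2 follicles were singled out after the levels had been seen, as those with the lowest medians of the 38 genes. The counts of the 38 genes in them describe that choice and do not test it. The granulosa markers summed to 69169 in growing follicle 1 and 71002 in plateau follicle 2, above plateau follicle 3 and below the other 5 follicles. The brightest markers weigh most in such a sum. Of the 10 granulosa markers, 6 lay below their own mean in growing follicle 1 and 7 in plateau follicle 2, and the rest lay above it. The smooth muscle and fibroblast markers summed to 15436 and 17852 there, within the range of the others, and 6 of 10 lay below their own mean in each. The part of these markers in the result was not tested.

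The sensors and factors of the unfolded protein response showed no common direction. XBP1, the transcription factor that raises chaperone transcription after its messenger RNA has been spliced, had levels of 14.48, 15.09, 15.66 and 15.81 in growing follicles 1 to 4 and of 15.39, 14.12, 15.04 and 15.45 in plateau follicles 1 to 4. It was lowest in plateau follicle 2 and next lowest in growing follicle 1, and the stages overlapped. Its log2 ratio was -0.26 ± 0.81 (SD, n = 4 pairs), and splicing was not analysed here. ERN1, the sensor kinase and nuclease that splices XBP1, had levels of 8.13, 8.08, 7.64 and 7.91 in growing and of 8.17, 8.23, 8.26 and 7.93 in plateau follicles. It was higher in the plateau follicle of every pair, at 0.21 ± 0.28, but most of this came from pair 3 and the probe lay near background.

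The lumenal chaperones and their cofactors all had a lower mean in plateau follicles, 9 of 9 genes with a median log2 ratio of -0.31, and none met the criterion. Without pair 2, 5 of the 9 were higher, with a median of 0.06. HSPA5 (BiP), the main HSP70 chaperone of the ER, had levels of 11.78, 13.76, 14.18 and 13.81 in growing follicles and of 13.96, 11.11, 13.30 and 13.54 in plateau follicles. Growing follicle 1 and plateau follicle 2 were low and the other 6 follicles lay within 13.30 to 14.18. The ratio of the pairs therefore ran from 2.18 in pair 1 to -2.65 in pair 2, with -0.88 and -0.27 in pairs 3 and 4, and averaged -0.40 ± 1.996.

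HSP90B1 (GRP94), the ER member of the HSP90 family, had levels of 10.72, 12.76, 13.17 and 12.74 in growing and of 12.71, 10.58, 12.41 and 12.59 in plateau follicles. The same follicle of each stage was low as for HSPA5, and the mean ratio was -0.27 ± 1.73. MANF, a secreted ER stress protein that binds HSPA5, had levels of 10.93, 13.39, 13.71 and 13.72 in growing and of 13.23, 10.17, 12.72 and 12.40 in plateau follicles. It had the largest SD over pairs of the 38 genes, from 2.30 in pair 1 to -3.22 in pair 2, and its mean of -0.81 ± 2.29 was well within that spread. CRELD2, an ER protein with disulfide isomerase activity that is induced by ER stress, had levels of 9.19, 10.72, 11.25 and 10.56 in growing and of 10.005, 8.50, 9.62 and 10.17 in plateau follicles. Plateau follicle 2 was again the lowest and growing follicle 1 the next lowest, with a mean ratio of -0.85 ± 1.35.

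The co-chaperones that hand substrates to HSPA5 varied less evenly. DNAJB9 (ERdj4), which keeps ERN1 in check, had levels of 10.56, 10.85, 10.81 and 10.72 in growing and of 11.09, 10.38, 10.99 and 10.26 in plateau follicles, and here plateau follicle 4 was the lowest. Its mean ratio was -0.06 ± 0.50. DNAJB11 (ERdj3) was 1.80 higher in pair 1 and 1.68 lower in pair 2 on the log2 scale, with a mean of -0.04 ± 1.47. DNAJC3 (p58IPK) averaged -0.51 ± 0.78, SDF2L1 -0.31 ± 0.78 and HYOU1 (GRP170), the nucleotide exchange factor of HSPA5, -0.16 ± 0.50.

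**Figure D3:**
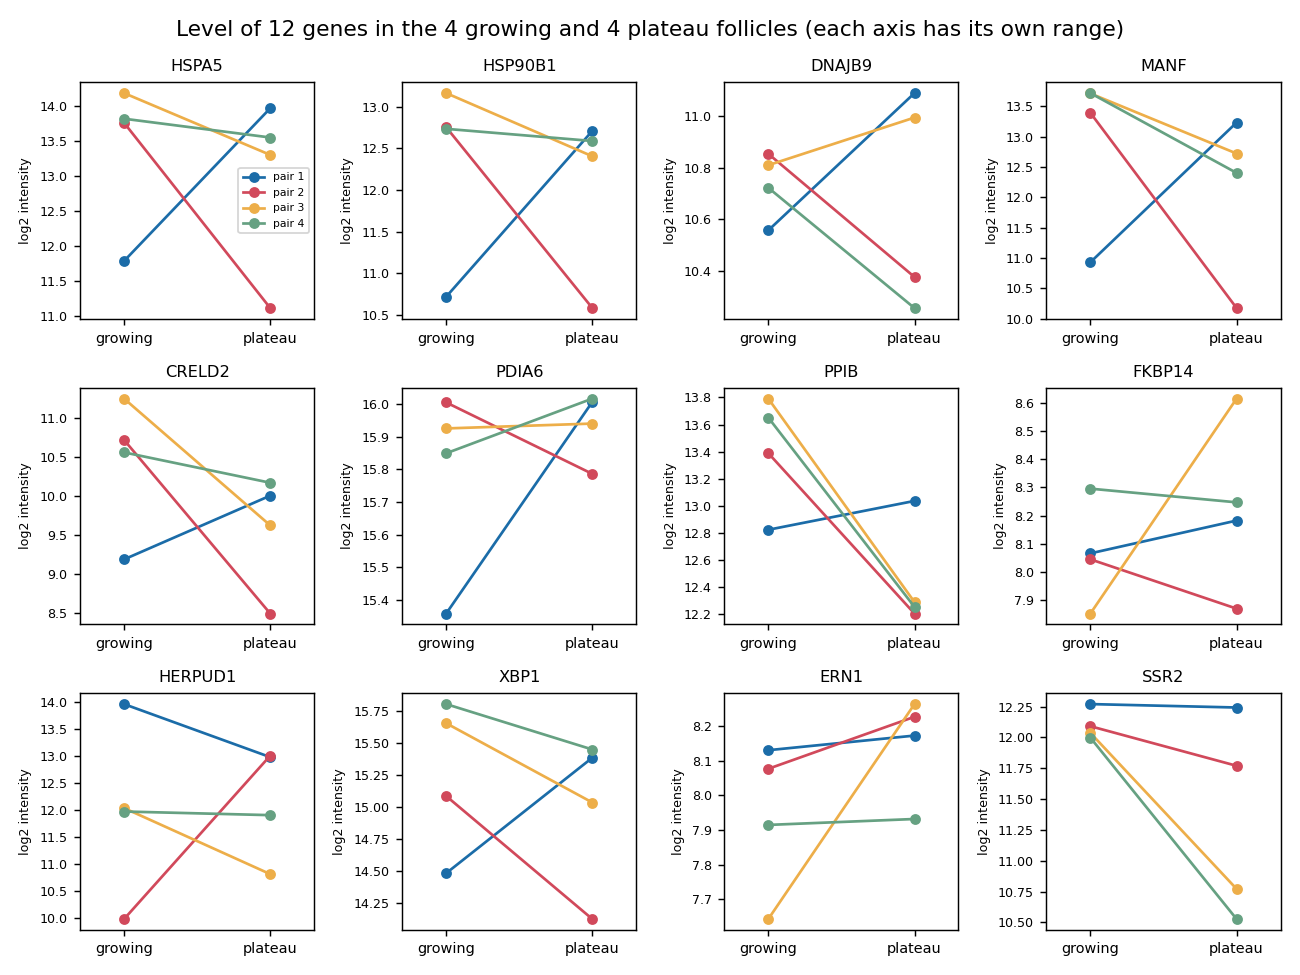
Levels of 12 genes (y axis, log2 intensity, each panel with its own range) in the growing and the plateau follicle of each pair, joined by a line. HSPA5, HSP90B1 and MANF are lower in the plateau follicle of pair 2 and higher in that of pair 1, HERPUD1 is the opposite, and PPIB is lower in the plateau follicle of pairs 2 to 4.

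Among the disulfide enzymes, 5 of 6 had a lower mean in plateau follicles, with a median of -0.18, but without pair 2 or pair 3 only 1 and 2 of them did. P4HB (PDI), the most general of the disulfide isomerases, was 2.31 higher in pair 1 and 0.70 to 1.36 lower in pairs 2 to 4, for a mean of -0.20 ± 1.70. PDIA3 (ERp57), which acts on glycoproteins held by calreticulin, averaged -0.15 ± 1.77. PDIA4 averaged -0.22 ± 0.66 and PDIA5 -0.22 ± 1.47. ERO1L, the oxidase that recharges these enzymes and is now named ERO1A, had nearly the same ratio in every pair, -0.19, -0.09, -0.13 and -0.13 in pairs 1 to 4. The ratios averaged -0.14 ± 0.04, a fold of 1.10, which is of the size of the deviation between its dye-swap arrays (median 0.12).

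PDIA6, an isomerase that acts together with HSPA5, had levels of 15.36, 16.01, 15.93 and 15.85 in growing and of 16.01, 15.79, 15.94 and 16.02 in plateau follicles. Its mean of 0.15 ± 0.37 came from the probe with the saturated readings. Its other 2 probes, dimmer and not saturated, gave 0.00 ± 1.33 and -0.07 ± 1.71, with ratios of 1.80 and 2.33 in pair 1 and of -1.32 and -1.67 in pair 2. The narrow spread of the brightest probe was thus not shared by the others of the same gene.

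CALR (calreticulin), the lumenal lectin that holds glycoproteins for folding, was 1.91 higher in the plateau follicle of pair 1 and lower in the others, at -0.99, -0.73 and -0.76, with a mean of -0.14 ± 1.37. The mean was above 0 without pair 2, 3 or 4. Its partner CANX (calnexin) was not measured.

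PPIB (cyclophilin B), a prolyl isomerase that helps to fold collagen and other secreted proteins, was the gene with the lowest mean of the 38. Its levels were 12.82, 13.39, 13.79 and 13.65 in growing follicles and 13.03, 12.20, 12.29 and 12.25 in plateau follicles. The plateau follicles of pairs 2 to 4 lay below every growing follicle, while that of pair 1 lay above growing follicle 1. Its ratio was -0.97 ± 0.80 (SD, n = 4 pairs), or 1.96-fold lower, with an unadjusted limma p of 0.033 and an adjusted p of 0.9997. It lost the criterion when pair 2, 3 or 4 was left out, with means of -0.90, -0.79 and -0.83. The 3 low values were those of plateau follicles 2 and 3, whose summed granulosa markers were low, and of plateau follicle 4. Plateau follicle 4 had a CYP19A1 level of 15.74 and the highest theca marker sum of all follicles, 8743. The part of these markers in the PPIB levels was not tested.

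Of the other prolyl isomerases, FKBP2 had the signs of PPIB in every pair. Its ratios were 1.44, -1.27, -0.96 and -0.49 in pairs 1 to 4, with a mean of -0.32 ± 1.22. FKBP14, which assists collagen folding, had levels of 8.07, 8.05, 7.85 and 8.30 in growing and of 8.18, 7.87, 8.61 and 8.25 in plateau follicles. Its mean was 0.16 ± 0.42, while its dye-swap arrays deviated from their mean by a median of 0.42 and differed in sign in pairs 1 and 2. The highest level was that of plateau follicle 3, the follicle with the highest fibroblast markers, and the part of these markers was not tested.

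The genes of ER-associated degradation were the only role group in which most means were higher in plateau follicles, 4 of 5 with a median of 0.13, and none met the criterion. Without pair 1 this turned, with 4 of 5 lower and a median of -0.30. HERPUD1, a membrane protein of the degradation complex and a target of the unfolded protein response, had levels of 13.96, 9.97, 12.03 and 11.96 in growing and of 12.97, 13.00, 10.80 and 11.90 in plateau follicles. It was highest in growing follicle 1 and lowest in growing follicle 2, so that pairs 1 and 2 ran against those of HSPA5, at -0.98 and 3.03, and the mean was 0.19 ± 1.96. Among the 38 genes, HERPUD1 had the widest range between follicles, and its dye-swap arrays deviated from their mean by a median of 0.13.

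The other 4 degradation genes had the signs of the chaperones, higher in pair 1 and lower in pair 2. EDEM1, which trims mannose from misfolded glycoproteins, had ratios of 1.45 and -1.77 there and a mean of 0.14 ± 1.36. SEL1L, the scaffold of the ubiquitin ligase complex, averaged 0.01 ± 1.14. The sign of these 2 means depended on the probe: the dimmer probes of EDEM1 gave -0.17 and 0.16, and those of SEL1L -0.17 and 0.24. DERL1 and DERL2, which take part in the channel to the cytosol, averaged 0.13 ± 0.93 and -0.07 ± 0.67.

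Of the 8 genes of the signal peptidase and of the complexes beside the translocation channel, 7 had a lower mean in plateau follicles, with a median of -0.37, and without pair 2 or pair 4, 5 of 8 did. SSR2, the beta subunit of the translocon-associated protein complex, had levels of 12.27, 12.09, 12.04 and 11.999 in growing and of 12.24, 11.77, 10.77 and 10.53 in plateau follicles. The growing follicles lay close together, and plateau follicles 3 and 4 were low while plateau follicle 1 was within the growing range. Its ratio was -0.77 ± 0.71, or 1.71-fold lower, with an unadjusted limma p of 0.047, close to the threshold, and an adjusted p of 0.9997. Its 2 other probes gave -0.73 ± 0.69 and -0.70 ± 0.53. Both were lowest in pair 3, at -1.49 and -1.42, and the first was higher in the plateau follicle of pair 2, at 0.19. SSR2 lost the criterion in the log2 ratios deposited by the authors, at -0.78, and when pair 2, 3 or 4 was left out, with means of -0.92, -0.61 and -0.54.

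SSR1 and SSR3, the alpha and gamma subunits, averaged -0.30 ± 0.66 and -0.49 ± 0.79, each lowest in pair 2. SSR4, the delta subunit, had ratios of -0.20, 0.73, -0.90 and -1.36, so that in pair 2 it went against SSR1 and SSR3. By the brightest probes, the lowest ratio was that of pair 4 in SSR2 and SSR4 and that of pair 2 in SSR1 and SSR3, although the 4 proteins form 1 complex. For SSR2 this depended on the probe, as its other probes were lowest in pair 3. The signal peptidase subunits SPCS1, SPCS2 and SPCS3 averaged 0.05 ± 0.46, -0.60 ± 0.99 and -0.12 ± 0.94. SERP1 (RAMP4), which protects membrane proteins at the channel during stress, averaged -0.09 ± 0.66.

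The 4 listed genes of the oligosaccharyltransferase (DAD1, OSTC, RPN1 and RPN2), which transfers the sugar chain to the nascent protein, all had a lower mean in plateau follicles, with a median of -0.27 and none at the criterion, and 3 of 4 did so without pair 2, 3 or 4. DAD1 had ratios of 1.13, -0.97, -0.99 and -1.03 in pairs 1 to 4, nearly the same in the last 3, and a mean of -0.46 ± 1.06. The ribophorins RPN1 and RPN2 averaged -0.29 ± 0.98 and -0.16 ± 1.28, and OSTC averaged -0.25 ± 0.72.

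Further ER genes outside the list of 40 leaned the same way in their means. In 5 lists (translocation, glycan handling, degradation, other folding factors and other stress response), 69 genes were measured. Of these, 47 had a lower mean in plateau follicles, or 68.1%, and the median log2 ratio was -0.10. By pair, 29.0%, 63.8%, 68.1% and 53.6% of them were lower. Without pair 2 or without pair 3 the lean was gone, with 33 of the 69 lower and a median of 0.01 in each case. At the criterion 1 gene was higher, FAF2, which recruits the VCP ATPase to the ER membrane, at 0.60 ± 0.29 with all 4 pairs higher. In the other direction 1 gene was lower, TXNDC12, a thioredoxin-like ER protein, at -0.92 ± 0.75 with all 4 pairs lower.

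The list of other folding factors came closest to the 38 genes, with 17 of 21 genes lower and a median of -0.19, though 9 of 21 without pair 2. Among the 14 translocation genes, the median was -0.08 and the means ran from -0.69 ± 1.04 for SEC11A, the catalytic subunit of the signal peptidase, to 0.54 ± 0.37 for SRP72 of the signal recognition particle. Among the 12 glycan genes, the median was -0.12 and the means ran from -1.01 ± 1.199 for DDOST, a subunit of the oligosaccharyltransferase, to 0.40 ± 0.70 for DPM1, which makes the mannose donor. The 13 further degradation genes had a median of -0.03. The 9 other stress response genes had a median of 0.03, from -0.23 ± 1.16 for MBTPS1, the protease that cleaves ATF6, to 0.23 ± 0.58 for DDIT3 (CHOP), the factor tied to cell death under ER stress.

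Among cytosolic chaperones and genes of ER to Golgi transport, the means were split about evenly. Of the 18 cytosolic chaperones, 9 were lower and 9 higher in plateau follicles, with a median of -0.01, and HSPB1, a small heat shock protein, was at the criterion at -0.92 ± 0.84. Of the 20 genes of transport from the ER to the Golgi apparatus, 9 were lower and 11 higher, with a median of 0.04, and SEC24D, a cargo-binding subunit of the COPII coat, was at the criterion at 0.67 ± 0.50. In both lists pair 2 had the largest share of genes lower in the plateau follicle, 66.7% and 75%, and pair 1 the smallest, 33.3% and 30%. The difference between these lists and the 38 genes was not tested.

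**Figure D4:**
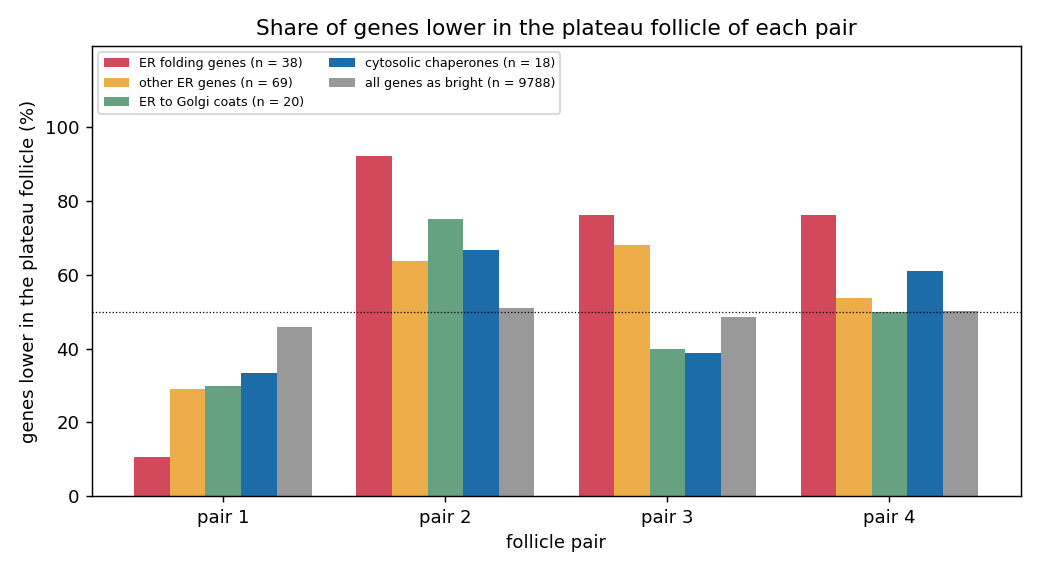
Share of genes with a lower level in the plateau follicle (y axis, percent) in each follicle pair (x axis), for the 38 ER folding genes, 69 other ER genes, 20 ER to Golgi genes, 18 cytosolic chaperones and 9788 genes as bright. The dotted line marks an even split. The ER folding genes range from 10.5% in pair 1 to 92.1% in pair 2, while the genes as bright stay between 46.0% and 51.1%.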

How the data were processed

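The authors deposited uncorrected scanner intensities, for every spot and for the background around it. On each array 12 to 30 spots had been marked for exclusion by eye. The log2 ratios in the series table had been background-subtracted and normalized by the authors with loess and quantiles, as their methods state. The same steps applied to the intensities gave these log2 ratios with r of at least 0.99966 on every array. Their column medians were -0.027 to -0.003, and they were used as an alternative. The arrays that involve atretic follicles were not used here.

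For each spot the median intensity was background-corrected (normexp, offset 50). Loess within arrays followed, with control and excluded spots at weight 0, and then Aquantile between arrays (limma 3.58.1, R 4.3.3), which leaves the ratios as loess gave them. A probe was above background on an array if it exceeded the 757 negative and dark spots' mean by 2 SD. Gene symbols covered 21790 of 43794 probes, and 22004 probes had none. Of the 38 genes, 13 had several probes. Among the 19 probes not chosen, 3 gave a mean of opposite sign to the brightest probe.

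Labels give the dye and the array position. Positions were taken as follicle pairs after the check that an array's deviations from the mean of its slide correlated at 0.80 to 0.93 with those of the same position on the other slide, and at -0.49 to -0.01 with other positions. The 2 arrays of a position were averaged, and the 4 pairs were tested against 0 with lmFit and eBayes, with Benjamini-Hochberg adjustment over 43794 probes. The labels call the follicles biological replicates. Each slide holds 1 dye orientation. The number of follicles, 4 pairs, limits the precision, as the 2 arrays of a pair are technical replicates. In simulated data of 43794 probes, 75% of probes changed by 1 on the log2 scale and 94% of those changed by 2 met the study's criterion, and 15% and 34% passed an adjusted p under 0.05. The changed probes were drawn from the brighter probes, so the rates are for those and do not describe the 38 genes. The SD over pairs had a median of 0.54 for the 9788 genes as bright, against 0.92 for the 38.

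The genes, lists and tests were chosen with earlier results of these data known. Values in every follicle or pair were given for genes at the criterion, the 4 highest and 4 lowest means, HSPA5, HSP90B1, XBP1, DNAJB9 and HERPUD1, and genes with the same direction in all pairs and a mean fold above 1.2. Alternatives were other background corrections, quantile normalization of both channels, the authors' ratios, other intensity minimums, 8 independent arrays, a block for the pair, each slide alone, all probes of a gene, exact symbols only, and each pair left out. Promoter and protein sequences were not analysed here.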

Additional observations from a re-analysis of the deposited data

Results flagged for a closer look

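In 7 of 115 groups of 4 values (for each of the 38 genes the growing levels, the plateau levels and the pair ratios, and the median ratio of the 38 genes by pair), the highest or lowest value stood far from the other 3. Chance gives about 1 in 20 such groups. All 7 values belong to pair 1 or pair 2. HSP90B1 in plateau follicles was lowest in plateau follicle 2 at 10.58, with the nearest at 12.41. In growing follicles, growing follicle 1 was the lowest for MANF at 10.93 (nearest 13.39), for SERP1 at 10.25 (nearest 11.47) and for RPN1 at 11.88 (nearest 12.70). PPIB in plateau follicles was highest in plateau follicle 1 at 13.03, with the nearest at 12.29. The log2 ratio of CALR in pair 1 was 1.91, with the nearest at -0.73, and that of DAD1 in pair 1 was 1.13, with the nearest at -0.97.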

How the results depend on the processing

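The study's criterion called 277 probes (121 higher and 156 lower in plateau follicles). It called 746 (368 and 378) with 8 arrays as independent, where 1 probe had an adjusted p under 0.05, 1009 (560 and 449) on the slide with plateau in Cy5 alone, 852 (366 and 486) on the slide with growing in Cy5 alone, and 306 to 1146 with a pair left out (1146 without pair 1, 643 without pair 2, 495 without pair 4). With a random replicate block for the pair and with a term for the dye, 689 probes were called (342 and 347), with 2 of the 38 genes, and an estimated correlation of 0.56 between the arrays of a pair. The block changed the call of none of the 38 genes. Of the 38 genes, 2 met the criterion, and 1 did without background correction, in the authors' ratios, on the slide with growing in Cy5 alone and, in an alternative added after seeing the data, with both channels quantile-normalized: SSR2 dropped out in each. CRELD2 joined with 8 independent arrays. With a pair left out, 0 to 12 genes met it: 12 without pair 1, 2 without pair 2 (EDEM1 higher at 0.77, SSR4 lower at -0.82) and 0 without pair 3 or 4. The median log2 ratio of the 38 genes ranged from -0.59 without pair 1 to 0.026 without pair 2, where its sign turned and 21 genes were higher and 17 lower. Under the alternatives that kept all 4 pairs it ranged from -0.34 to -0.11. The mean of 5, 15, 8 and 7 of the 38 genes changed sign without pairs 1 to 4. The causes were not tested.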
